A study of Mus musculus with 32 samples.

Results

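The 39 genes described here copy DNA, drive mitosis or control entry into the cell cycle, and they were followed through the differentiation of mouse embryonic stem cells (ESCs). They were taken by symbol from a list of cell cycle genes by a rule that sets no threshold on their levels, and all 39 were listed among the 20612 genes with a value in any library. They fall into 19 genes of DNA replication, 3 regulators of the step from G1 into S phase, 12 genes of mitosis, and 5 genes for D cyclins and inhibitors of cyclin-dependent kinases. RNA was sequenced from J1 cells, an ESC line of the mouse strain 129S4/SvJae, and from cultures grown from them. Cultures were given a bisphenol at 100 nM, either A (BPA), F (BPF) or S (BPS), or dimethyl sulfoxide (DMSO), the solvent, alone. One set of libraries came from ESCs at day 0 and from embryoid bodies (EBs, floating clumps of differentiating cells) at days 4, 6, 9, 12 and 20. The other came from EBs at day 8 that had spent 4 days in retinoic acid (RA EBs) and from monolayer neural progenitor cultures (NPCs) at day 10. There were 32 libraries, 1 for each of 8 stages and 4 treatments, all from the same line, and the labels name no replicate culture. The 4 libraries of a stage therefore stand in for replicates when stages are compared. The p-values for stages and for pairs of compounds rest on a spread estimated for each gene from all 32 libraries. Differences between stages and between treatments are first taken out of it. That spread may be technical or may hold bisphenol differences particular to a stage, and no replicate culture gauges it.

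Before S phase, the origin recognition complex, Cdc6 and Cdt1 load the ring-shaped Mcm helicase onto DNA, and Cdc45 and the Gins proteins later turn it into an active helicase. D cyclins with their kinases inactivate retinoblastoma proteins, which frees E2F factors to switch on E cyclins and the replication genes, while inhibitors such as those from Cdkn1b and Cdkn2a hold the kinases back. Genes of mitosis peak later, under Foxm1 and B-Myb, and their promoters often carry the short elements named CHR and CCAAT. Mouse ESCs are known for a very short G1 phase and rapid division, and many differentiating cells divide more slowly or leave the cycle.

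Libraries held 9574833 to 11070149 estimated reads and listed 16326 to 17839 genes each. The summed level of 5 pluripotency markers (Pou5f1, Nanog, Sox2, Zfp42 and Esrrb) lay between 2021 and 2118 FPKM in ESCs (FPKM, fragments per kilobase of transcript, scaled to the reads mapped in the library) and between 58.25 and 80.01 in NPCs. Of the 8 stages NPCs had the highest summed level of 10 neuron markers, 2536 to 2837 FPKM, beside 333.7 to 377.2 for 5 neural progenitor markers, so cultures labelled as progenitors also held much neuronal RNA. Of the same 10 neuron markers ESCs summed to 209.7 to 223.5 FPKM, 162.3 to 180.6 of it from Stmn2. Neuron-specific Dcx was at or below 0.03 FPKM there.

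Promoters of the replication and mitosis genes were searched for the elements through which these families are known to be controlled, because most of them later fell together. RefSeq (GRCm38.p6) gave 32 promoters for 29 of the 39 genes, each with 250 bases before and 50 after an annotated start. A gene can have more than 1 such start, and that of Orc1 lay inside the span of its gene. E2F sites were searched as TTTCCCGC, TTTGGCGC, TTTCGCGC or TTTGCCGC, CHR as TTTGAA and the CCAAT box as CCAAT, on both strands, and E2F letters on opposite strands can overlap. E2F letters were found in 8 of 16 replication promoters (50%), in 1 of 9 mitosis promoters (11.1%, that of Cdk1) and in 2.26% of the 32851 promoters searched. The CHR letters were found in 7 of 9 mitosis promoters (77.8%), in 3 of 16 replication promoters (18.8%) and in 17.9% of all promoters. CCAAT was present in 14 of 16 replication promoters (87.5%) and 9 of 9 mitosis promoters (100%), against 37.4% of all. Neither promoter of the G1/S regulators Ccne1 and E2f1 held any of these letters. A match describes the letters and shows no binding.

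Stretches of 4 replication promoters show the E2F letters beside CCAAT boxes. All 8 genes shown fell by a log2 of 1 or more both between EB days 12 and 20 and from RA EBs to NPCs. Each stretch reads 5′ to 3′ along the gene, and capitals mark every match on either strand (CCAAT reads ATTGG, and TTTGAA reads TTCAAA, on the opposite strand).
Mcm6 (chr1:128359706-128359820, minus strand): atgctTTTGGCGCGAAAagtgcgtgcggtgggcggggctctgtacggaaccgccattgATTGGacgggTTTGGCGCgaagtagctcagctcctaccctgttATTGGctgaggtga
Mcm5 (chr8:75109351-75109498, plus strand): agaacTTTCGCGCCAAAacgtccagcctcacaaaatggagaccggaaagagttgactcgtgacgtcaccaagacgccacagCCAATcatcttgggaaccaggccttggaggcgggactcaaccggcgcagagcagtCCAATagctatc
Orc1 (chr4:108579329-108579438, plus strand): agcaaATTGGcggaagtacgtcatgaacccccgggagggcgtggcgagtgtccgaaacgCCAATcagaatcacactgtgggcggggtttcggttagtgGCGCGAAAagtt
Gins3 (chr8:95633409-95633538, plus strand): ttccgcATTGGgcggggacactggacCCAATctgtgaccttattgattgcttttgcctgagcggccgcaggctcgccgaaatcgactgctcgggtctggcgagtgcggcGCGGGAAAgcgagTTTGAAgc
In the Mcm6 and Mcm5 stretches overlapping E2F matches from both strands form 1 run of 12 capitals, while Orc1 and Gins3 each have a single match on the opposite strand, and Gins3 also holds a CHR.

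Stretches of 4 mitosis promoters show the other arrangement, repeated CCAAT boxes upstream of a CHR.
Ccnb2 (chr9:70421540-70421644, minus strand): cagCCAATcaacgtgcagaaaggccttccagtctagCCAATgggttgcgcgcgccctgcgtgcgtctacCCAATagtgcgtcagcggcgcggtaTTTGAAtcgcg
Cdk1 (chr10:69352913-69353047, minus strand): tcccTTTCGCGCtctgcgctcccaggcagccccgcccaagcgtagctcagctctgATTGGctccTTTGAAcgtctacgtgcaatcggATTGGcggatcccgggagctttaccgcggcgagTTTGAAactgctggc
Top2a (chr11:99024200-99024344, minus strand): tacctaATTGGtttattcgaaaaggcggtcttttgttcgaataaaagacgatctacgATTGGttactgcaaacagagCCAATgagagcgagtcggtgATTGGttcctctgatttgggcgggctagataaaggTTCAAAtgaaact
Mki67 (chr7:135716465-135716574, minus strand): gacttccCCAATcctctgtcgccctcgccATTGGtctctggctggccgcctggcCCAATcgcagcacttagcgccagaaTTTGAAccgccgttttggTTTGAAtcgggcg
Of these 4, Cdk1 alone also holds an E2F match. Outside the printed stretches Ccnb2 has a further CHR at -167 from its start, upstream of all its CCAAT boxes. Top2a has a further CHR at -179, upstream of most of its CCAAT boxes. The promoters of Ccnb1 and Bub1 held CCAAT boxes but no CHR, so the arrangement is not that of every mitosis promoter.

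In ESCs these genes were expressed at very different levels. Pcna, the sliding clamp of DNA polymerases, was highest at 292 ± 10.2 FPKM (SD, n = 4), followed by Top2a, which untangles chromosomes, at 226 ± 8.14. Among helicase subunits Mcm7 was at 214 ± 7.12, Mcm2 at 170.2 ± 0.39 and Mcm4 at 101 ± 4.58 FPKM, so subunits that assemble in equal numbers differed in RNA level. At the low end were the loading factor Cdc6 (16.6 ± 0.414), the cyclin Ccne2 (6.33 ± 0.495), the helicase component Gins3 (5.92 ± 0.651) and the D cyclin Ccnd2 (0.21 ± 0.0744).

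**Figure D1:**
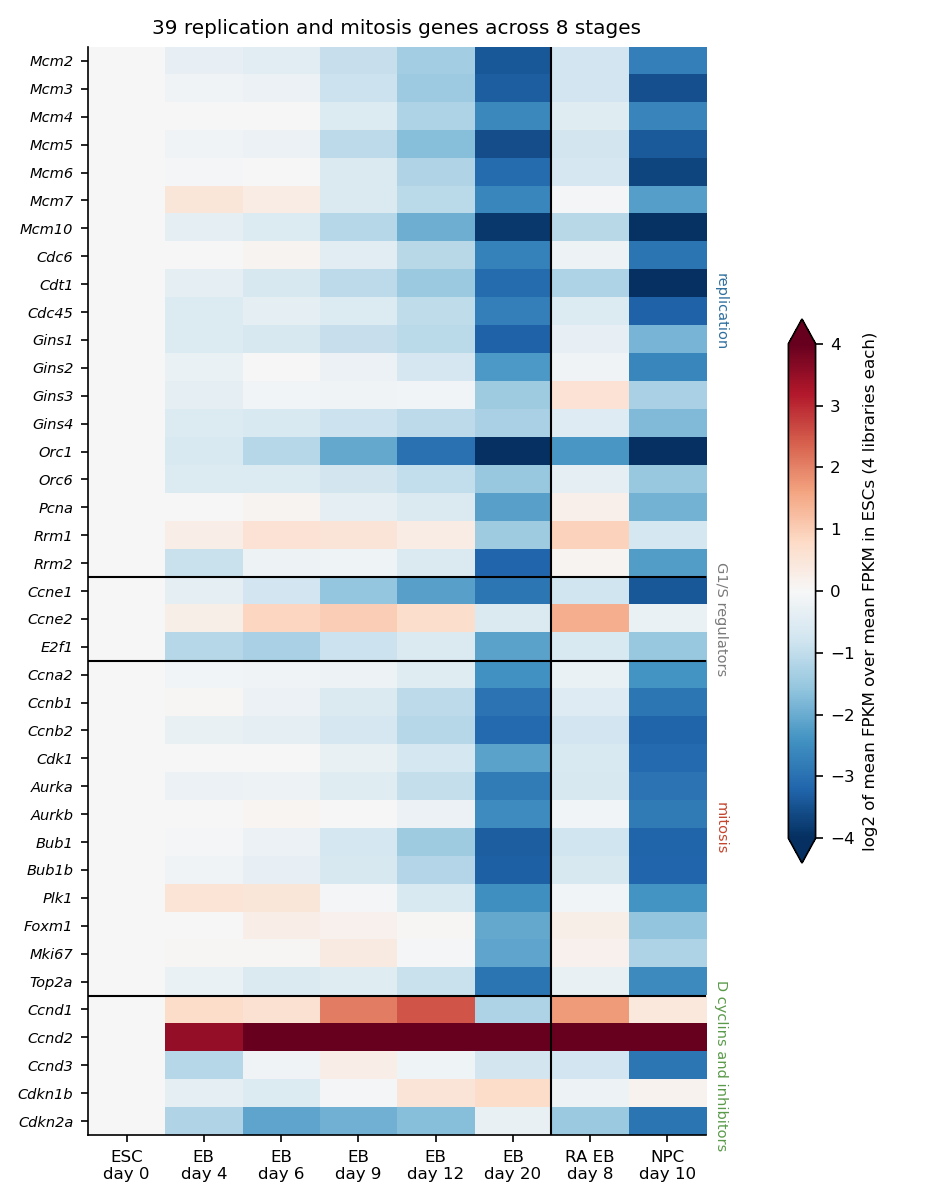
Heat map of the 39 genes (rows, grouped by role) at 8 stages (columns), coloured by the log2 ratio of the stage's mean FPKM to the ESC mean, 4 libraries each, with the scale ending at -4 and 4. Replication and mitosis genes turn dark blue at EB day 20 and in NPCs, where their median levels were 13.9% to 16% of the ESC level, while Ccnd1 and Ccnd2 rose before they fell.

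From ESCs to EB day 12 most replication genes declined, though not at every step. Mcm2 stood at 170.6, 170.2, 169.7 and 170.5 FPKM in the ESC libraries (DMSO, BPA, BPF and BPS in this order, as in all lists of 4 below). It stood at 133.3, 131.3, 135.5 and 138 at day 4 and at 72.18, 62.61, 60.4 and 66.34 at day 12. The 3 sets of libraries did not overlap, and the day 12 mean was 38.4% of the ESC mean. The median replication gene was at 79% of its ESC level at EB day 4, 85.7% at day 6, 67% at day 9 and 47.7% at day 12. At day 12 Rrm1 was at 122% and Gins3 at 93.3%. The median mitosis gene was at 96.1%, 89.2%, 76.6% and 57.8%. Because whole cultures were sequenced, fewer dividing cells and less RNA per dividing cell cannot be told apart.

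A gene was called when its Benjamini-Hochberg adjusted p in the edgeR quasi-likelihood test, taken over 15632 genes, was under 0.05 and its log2 change was at least 1 in size. At EB day 4, 4 of the 39 passed against ESCs (28% of all genes did), and 25 passed on the adjusted p alone (64.7% of all genes). Ccnd2 rose by 3.50 ± 0.28 (log2 change ± SE), while E2f1 (-1.13 ± 0.13), Ccnd3 (-1.13 ± 0.12) and Cdkn2a (-1.18 ± 0.28) fell. Against the 14 replication genes with a negative change, the helicase subunit Mcm7 gained 0.52 ± 0.07 and Rrm1, the large subunit of ribonucleotide reductase that makes deoxynucleotides, gained 0.27 ± 0.08. The other 3 genes with positive estimates in that class, Mcm4, Pcna and Cdc6, were at 0.02 to 0.04 and did not pass at an adjusted p under 0.05. Among mitosis genes the polo kinase gene Plk1 went up by 0.57 ± 0.09 against the majority, and Aurkb, Cdk1, Ccnb1 and Mki67 lay between 0.01 and 0.07 with adjusted p of 0.37 or more in edgeR. Rrm2, the small reductase subunit, was lowest of the replication genes at -0.87 ± 0.11.

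Between EB days 4 and 6 only Ccnd2 was called among the 39 (19.5% of all genes were), and 20 passed on the adjusted p alone (53.5%). Of the replication genes, 11 had a negative and 8 a positive estimate, and the positive ones ran from 0.04 (Mcm6, Cdc6) through Pcna, Cdc45, Rrm1, Gins2 and Gins3 to Rrm2, at 0.64 ± 0.11. In the mitosis class Aurkb (0.03 ± 0.09) and Foxm1 (0.25 ± 0.09) went against 10 negative estimates. From day 6 to day 9 Ccnd1 and Ccnd2 were called, both higher (14.7% of all genes passed, 10.7% as higher). Without the threshold on size 29 of the 39 passed (51% of all genes) and 24 of them were lower at day 9 (24.1%), led by Orc1 (-0.98 ± 0.10), Mcm7 (-0.95 ± 0.07) and Mcm5 (-0.88 ± 0.06), and Top2a (0.04 ± 0.09) and Mki67 (0.24 ± 0.13) went against their class without passing. From day 9 to day 12 the edgeR test called none of the 39 (9.99% of all genes), and DESeq2 and limma also called none, although 35 had an unadjusted p under 0.05. With no threshold on size 33 passed (41.1% of all genes) and 31 of these were lower (20.8%), the largest being Orc1 (-0.96 ± 0.11) and Mcm10 (-0.85 ± 0.07), and Gins3 stood at 0.00 ± 0.11 as the exception in its class. Over these 4 steps Orc1, which marks replication origins, went from 34.3 ± 0.955 to 4.34 ± 0.431 FPKM, to 12.6% of its ESC level, the lowest share of the 39 at day 12. The median change of the 39 was -0.14, -0.11, -0.33 and -0.47 over the 4 steps, against -0.01 to 0.03 over all genes.

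**Figure D2:**
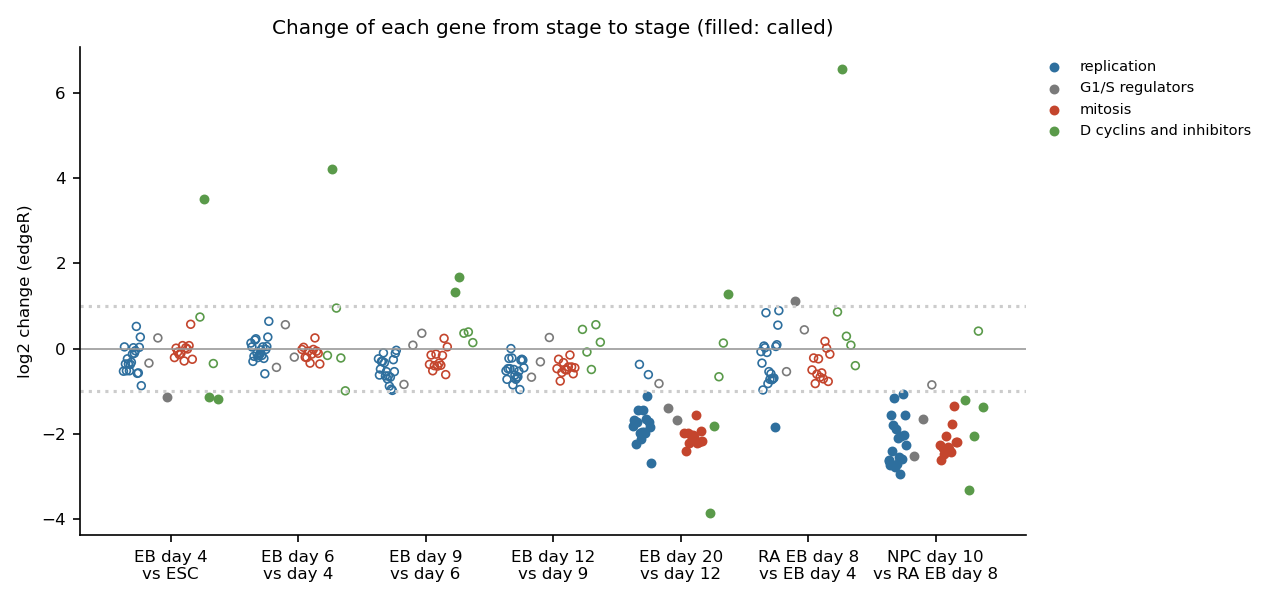
Log2 change of each of the 39 genes (edgeR, vertical axis) in 7 comparisons of consecutive stages (horizontal axis), coloured by role, with filled points for called genes and dotted lines at -1 and 1. Filled points gather below -1 in the comparisons of EB day 20 with day 12 (33 lower) and of NPCs with RA EBs (37 lower).

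The largest fall of the EB series came between days 12 and 20. Of the 39 genes 34 were called (26.4% of all genes), 33 as lower (8.78%) and 1 as higher (17.6%): 17 of 19 replication genes, 12 of 12 mitosis genes, Ccne2 and E2f1, Ccnd1 and Ccnd2 fell. On the adjusted p alone 38 passed (68.2%). The median of the 39 was -1.83, against 0.00 over all genes. Rrm2 dropped from 126.6, 93.73, 99.84 and 97.39 FPKM at day 12 to 11.55, 17.82, 22.46 and 18.03 at day 20 (log2 change -2.69 ± 0.12, adjusted p = 1.8e-16). Every day 20 library was far below every day 12 library, and the DMSO library was the highest at day 12 and the lowest at day 20. Gins1 (-2.23 ± 0.12), Mcm2 (-2.13 ± 0.07) and Mcm10 (-1.98 ± 0.08) followed among replication genes.

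Among mitosis genes the chromosomal passenger kinase Aurkb fell most, by 2.40 on the log2 scale (SE 0.10). Its libraries held 61.7, 52.86, 54.52 and 53.06 FPKM at day 12 and 8.4, 11.05, 12.9 and 13.11 at day 20. Bub1b, of the spindle checkpoint, changed by -2.22 ± 0.07, the transcription factor Foxm1 by -2.22 ± 0.10 and the proliferation marker Mki67 by -2.18 ± 0.14. Mki67 stood at 44.9, 35.85, 34.55 and 39.13 FPKM at day 12 and 7.3, 8.96, 11.01 and 9.45 at day 20. All 12 mitosis genes lay between -2.40 and -1.56, a narrow band compared with -2.69 to -0.37 in the replication class.

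The other 2 replication genes kept much of their RNA. Gins4 went from 38 ± 3.52 to 31.6 ± 2.48 FPKM (-0.37 ± 0.07) and Orc6 from 29.6 ± 1.78 to 20.7 ± 1.11 (-0.61 ± 0.08), so both passed the adjusted p but not the threshold on size. Orc1 was called at -1.10 ± 0.13, from 4.34 ± 0.431 to 2.17 ± 0.366 FPKM, but not with limma on log2(FPKM + 1), which gave -0.75. At day 20 Gins4 stood at 40.3% of its ESC level, while its partners in the same complex stood at 10.6% (Gins1), 20.2% (Gins2) and 37% (Gins3). Ccne1 (-0.82 ± 0.10) also stayed short of the threshold after its steady earlier decline. In the same interval the summed neuron markers went from 608.8 to 865.2 FPKM at day 12 to 1273 to 1663 at day 20, 3 astrocyte markers (Gfap, Aqp4 and Slc1a3) from 7.03 to 11.92 up to 392.7 to 409.9, and 5 mesenchyme markers (Col1a1, Col3a1, Dcn, Lum and Pdgfra) rose in each treatment. Neural progenitor markers went from 373.4 to 608.8 FPKM at day 12 down to 196.7 to 306.5 at day 20. The part of these markers in the fall was not tested.

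In the neural branch, too, the large fall came at the last stage. In RA EBs the median replication gene was at 71.7% and the median mitosis gene at 76% of the ESC level. RA EBs of day 8 had 3 called genes against EB day 4 (34.7% of all genes): Ccnd2 (6.55 ± 0.19) and Ccne2 (1.11 ± 0.08) rose and Orc1 (-1.83 ± 0.10) fell. On the adjusted p alone 28 passed (72.4%). No EBs of day 8 without retinoic acid were sequenced, so the acid and the added days of culture cannot be told apart. Mcm helicase genes were moderately lower, from -0.54 ± 0.06 (Mcm2) to -0.73 ± 0.06 (Mcm5), whereas the nucleotide genes Rrm1 (0.55 ± 0.08) and Rrm2 (0.89 ± 0.11) and Gins3 (0.84 ± 0.12) were higher. Gins1, Gins2, Orc6 and Pcna also had positive estimates, of 0.02 to 0.09, without passing at an adjusted p under 0.05. Among mitosis genes Foxm1 (0.17 ± 0.09) and Mki67 (0.01 ± 0.13) went against the class.

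From RA EBs to NPCs 37 of the 39 fell (35.5% of all genes were called, 17.4% as lower), including all 19 replication and all 12 mitosis genes. None was called higher (18.1% of all genes), and all 39 passed on the adjusted p alone (72.8%). The median was -2.20, against -0.01 over all genes. Mcm6 had the largest drop among replication genes, from 110.6, 96.11, 104.2 and 106.2 FPKM in RA EBs to 14.57, 13.61, 12.27 and 11.42 in NPCs (-2.94 ± 0.08, adjusted p = 3e-21). The groups were far apart in all 4 treatments. Mcm10 (-2.77 ± 0.08), the loading factor Cdt1 (-2.74 ± 0.12) and Mcm3 (-2.70 ± 0.08) came next. Of the mitosis genes Aurkb (-2.62 ± 0.10), Bub1b (-2.46 ± 0.07), Cdk1 (-2.42 ± 0.10) and the cyclin Ccnb2 (-2.36 ± 0.08) fell most. Ccne1 fell by 2.51 on the log2 scale (SE 0.10) and Ccne2 changed by -1.66 ± 0.09, while E2f1 (-0.85 ± 0.13) did not reach the threshold. Orc6, at -1.06 ± 0.08, was the member nearest the threshold and was not called with DESeq2 or with relative log expression (RLE) scaling. Summed neuron markers rose from 352.6 to 424.9 FPKM in RA EBs to 2536 to 2837 in NPCs over the same step, and their part was not tested.

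For most of these genes NPCs of day 10 and EBs of day 20 differed by less than a log2 of 1, though most passed on the adjusted p alone. Of the 39, 6 were called (34% of all genes), 4 as higher in NPCs (10%) and 2 as lower (23.9%), and 30 passed on the adjusted p alone (75.8%): Gins1 (1.44 ± 0.12), Rrm2 (1.16 ± 0.12), Mki67 (1.10 ± 0.14) and Ccnd1 (1.87 ± 0.15) were higher and Ccnd3 (-1.93 ± 0.12) and Cdkn2a (-2.34 ± 0.33) lower. Mki67 stood at 15.94, 18.85, 15.38 and 17.01 FPKM in NPCs, above every day 20 library. With limma on log2(FPKM + 1), Rrm2 (0.93) and Mki67 (0.81) stayed under the threshold on size. In the replication class 6 genes had negative estimates, from Orc1 (-0.77 ± 0.16) and Cdt1 (-0.75 ± 0.13) through Mcm6 (-0.38 ± 0.08), Cdc45 and Gins4 to Gins2 (-0.09 ± 0.11), as did Cdk1 (-0.71 ± 0.10) and Aurkb (-0.07 ± 0.11) in the mitosis class and Ccne1 (-0.27 ± 0.11) in the G1/S class. The 2 cultures also differ in age by 10 days, in growth form and in past exposure to retinoic acid, which cannot be told apart from their cell types.

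Replication and mitosis genes were then compared as classes, by the median log2 change of each and the difference of the 2 medians with its SD over the 4 treatments. At EB day 4 replication genes had gone down (median -0.32) and mitosis genes hardly (-0.04), a difference of -0.28 with an SD of 0.10, or of -0.13 without the DMSO libraries. By treatment it was -0.21, -0.26, -0.22 and -0.04, all smaller in size than the fitted value, and BPS showed little of it. From day 6 to day 9 the difference was -0.19 with an SD of 0.05, again with the replication genes lower. From day 12 to day 20 it had the other sign, with mitosis genes at -2.06 and replication genes at -1.73, a difference of 0.32 with an SD of 0.04 that was positive in each treatment (0.38 in DMSO, 0.29 in BPA, 0.30 in BPF and 0.28 in BPS). In RA EBs, too, mitosis genes were lower than replication genes against EB day 4, by a difference of 0.20 with an SD of 0.11 (0.12, 0.10, 0.34 and 0.17 by treatment). From RA EBs to NPCs the fitted medians were -2.26 and -2.27, a difference of 0.01 with an SD of 0.08, although the differences by treatment were 0.14, 0.02, 0.21 and 0.14, all positive. Between NPCs and EB day 20 it was -0.15 with an SD of 0.16. At days 4 to 6 (0.05) and 9 to 12 (-0.03) the differences were also within their SD of 0.07. These differences describe the 31 genes and carry no test.

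**Figure D3:**
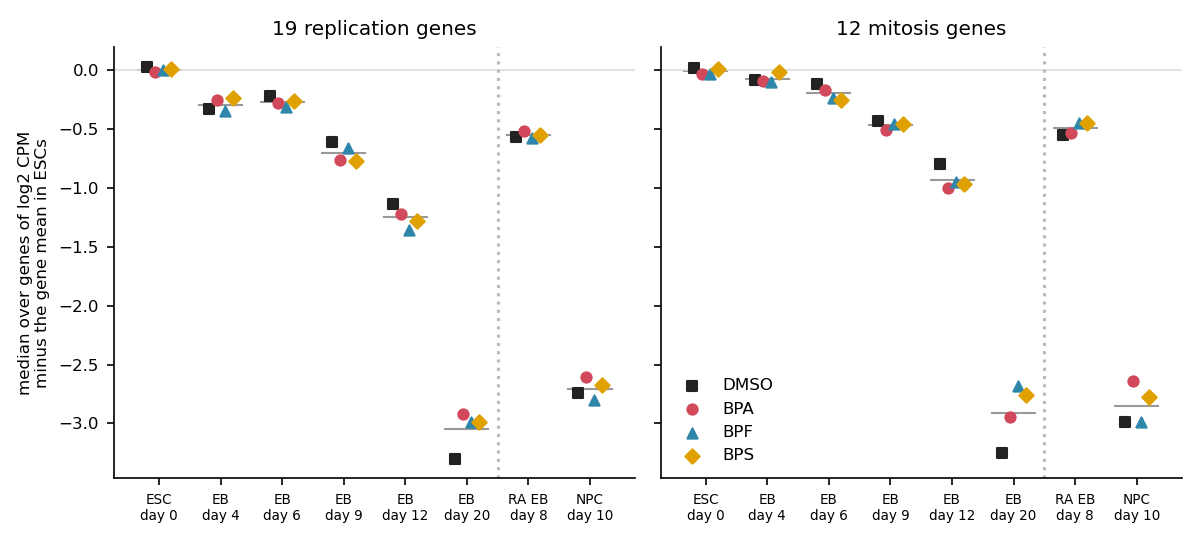
Median over 19 replication genes (left) and 12 mitosis genes (right) of log2 CPM minus each gene's ESC mean, in every library (points, shaped and coloured by treatment) at 8 stages, with grey bars for the mean of the 4 libraries. At EB day 20 the DMSO library is lowest in both classes, at -3.30 and -3.25, against -2.99 to -2.92 and -2.95 to -2.68 in the bisphenol libraries.

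Around their stage means, pooled over all stages, mitosis genes moved together more than replication genes did. After subtracting each gene's stage mean, the median pairwise correlation of log2 CPM over the 32 libraries was 0.57 within the mitosis class, 0.25 within the replication class and 0.33 between them. It was 0.03 over the 6984 genes above 10 CPM in every library. The libraries share stages and treatments, so these values are descriptive. Stages with a wide spread between treatments weigh most in them. The mitosis medians ran from -3.25 (DMSO) to -2.68 (BPF) at EB day 20, but only from -0.03 to 0.02 in ESCs. Correlation within single stages was not tested.

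The G1/S regulators took 3 separate courses. Ccne1 declined at every EB step, from 68.6 ± 2.94 FPKM in ESCs to 53.4 ± 2.35, 40.6 ± 3.19, 23.7 ± 1.45, 15.2 ± 1.68 and 9.31 ± 1.43 at days 4 to 20. Ccne2 rose from 6.33 ± 0.495 in ESCs to 12.5 ± 1.02 at day 9 and 17.4 ± 1.9 in RA EBs before it fell. In ESCs Ccne1 was far more abundant per length than Ccne2, whereas in NPCs the E cyclins were close (6.61 ± 1.18 against 5.22 ± 0.532 FPKM). E2f1 fell at the first step from 29.2 ± 1.53 to 13.2 ± 0.962 FPKM, recovered to 19.6 ± 3.31 at day 12 and fell again to 6.67 ± 1.43 at day 20.

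The D cyclins link growth signals to the cycle, and Ccnd1 and Ccnd2 had the 5 largest single changes of the 39 genes over the 8 stage comparisons. Ccnd2 stood at 0.17, 0.19, 0.32 and 0.16 FPKM in ESCs, 2.38, 2.20, 2.36 and 2.60 at EB day 4, 35.64, 48.73, 46.63 and 51.79 at day 6 and 185.3, 150.9, 140.6 and 137.3 at day 9. Each set lies wholly above the one before, and the steps were 3.50 ± 0.28, 4.21 ± 0.18 and 1.68 ± 0.15. It held at 149 ± 18.6 at day 12, fell to 45.9 ± 13.1 at day 20 (-1.82 ± 0.15), and went from 240 ± 16.6 in RA EBs to 22.8 ± 2.46 in NPCs (-3.32 ± 0.16).

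Ccnd1 (Entrez 12443, chromosome 7) rose later and fell further. Its ESC mean of 22.7 ± 0.748 FPKM went to 37.4 ± 1.25 at day 4 and 34.8 ± 2.9 at day 6. The libraries then held 132.2, 87.23, 82.35 and 69.38 at day 9, 191.4, 113, 110.7 and 105.4 at day 12 and 8.06, 8.93, 10.94 and 10.21 at day 20. The DMSO library was highest at days 9 and 12 and lowest at day 20, and the change from day 12 to day 20, -3.85 ± 0.16, was the largest fall of the 39 in any step. It was at 73.6 ± 8.73 FPKM in RA EBs and 30.1 ± 2.9 in NPCs (-1.21 ± 0.14).

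Ccnd3 was the D cyclin of ESCs, at 121 ± 1.3 FPKM against 22.7 for Ccnd1 and 0.21 for Ccnd2. It dropped to 54.8 ± 3.03 at EB day 4, returned to 110 ± 7.55 at day 6 and 147 ± 17.8 at day 9, and then declined to 108 ± 10.3 and 73.2 ± 17.8 at days 12 and 20. It was at 71.9 ± 8.19 in RA EBs and 16.4 ± 1.95 in NPCs (-2.05 ± 0.12). In ESCs the order was Ccnd3, Ccnd1, Ccnd2, whereas in RA EBs Ccnd2 came first and Ccnd1 and Ccnd3 did not differ beyond their spread.

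Cdkn1b, which encodes an inhibitor of cyclin-dependent kinases, passed the threshold on size in none of the 8 stage comparisons. It stood at 39.2 ± 0.905 FPKM in ESCs, 30.4 ± 1.5, 26.9 ± 2.94, 37.1 ± 1.27, 56 ± 5.28 and 66 ± 9.95 at EB days 4, 6, 9, 12 and 20, 34.5 ± 2.52 in RA EBs and 43.4 ± 3.09 in NPCs. Its rise of 0.41 ± 0.09 in NPCs (adjusted p = 0.00028 in edgeR) passed the adjusted p without the threshold on size, and it was the only one of the 39 to go up at that step. Cdkn2a, whose transcripts encode another kinase inhibitor and Arf, which the gene-level values do not separate, was at 21.1 ± 0.747 FPKM in ESCs and 4.86 ± 0.843 at EB day 6. At day 20 its libraries held 6.13, 18.48, 19.11 and 25.42 FPKM (1.29 ± 0.29 against day 12), with DMSO far below the bisphenol libraries. It was at 9.22 ± 1.47 at day 4, 5.6 ± 1.11 at day 9, 6.48 ± 3 at day 12, 7.51 ± 1.52 in RA EBs and 2.78 ± 1.07 in NPCs.

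**Figure D4:**
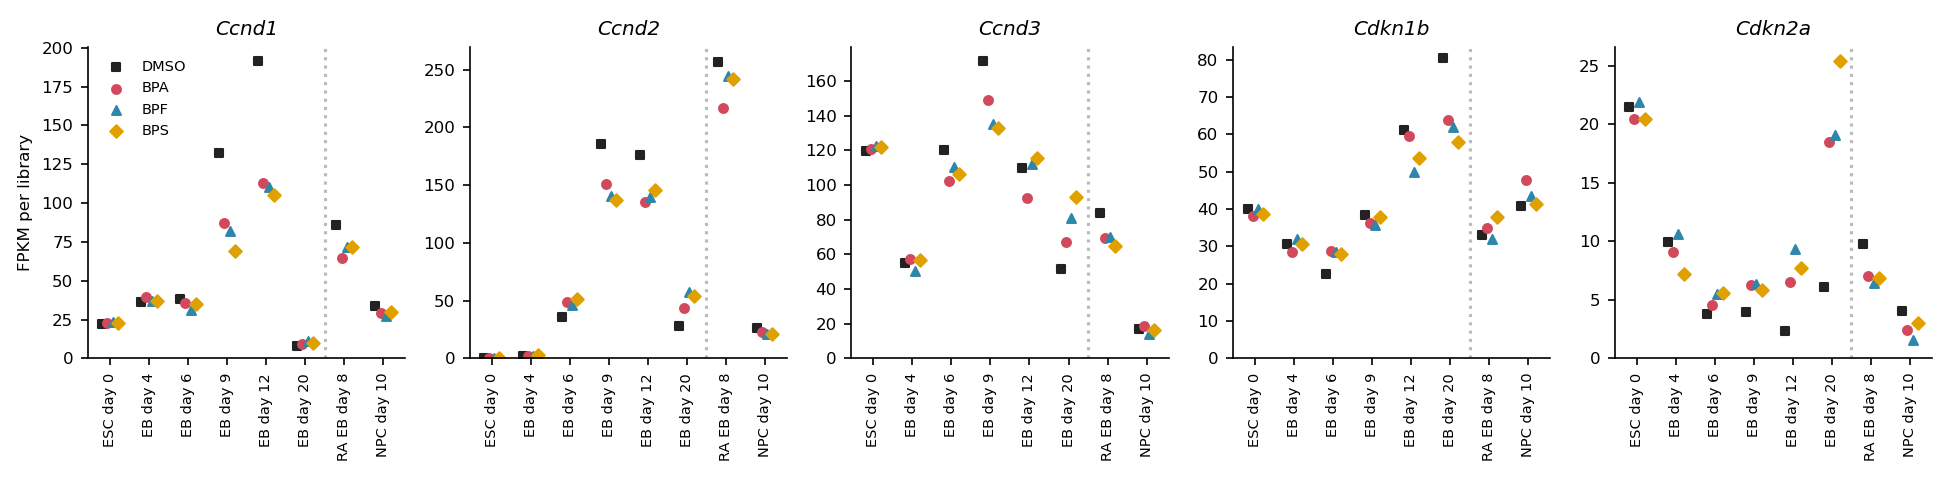
FPKM (linear axes from 0) of Ccnd1, Ccnd2, Ccnd3, Cdkn1b and Cdkn2a in every library at 8 stages, with points shaped and coloured by treatment. In Ccnd1 the DMSO library stands above the others at EB days 9 and 12 (132.2 and 191.4), and in Cdkn2a it stands below them at days 12 and 20 (2.32 and 6.13).

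Other genes of the same pathways, from 4 lists outside the 39, were examined in the same libraries. The lists were chosen with earlier results of these data known, so they are no independent test. Between EB days 12 and 20, 27 of 38 further replication fork and S phase genes were called lower (median -1.36; 8.78% of all genes), including Uhrf1 (-2.52 ± 0.09), Clspn (-2.19 ± 0.08) and Chaf1a (-2.16 ± 0.10), and none was called higher. The origin subunits Orc3 (0.07) and Orc4 (-0.02) stayed level, unlike Orc1. All 39 further genes of G2 and mitosis fell (median -1.89), led by Cdca8 (-2.55 ± 0.12), Cdc25c (-2.51 ± 0.14) and Nusap1 (-2.24 ± 0.09). From RA EBs to NPCs, where 17.4% of all genes were called lower, 34 of 38 fork genes fell (Pole2 -2.91 ± 0.14, Hells -2.83 ± 0.09, Dtl -2.60 ± 0.09) and 38 of 39 genes of G2 and mitosis (Ect2 -2.43 ± 0.08, Cenpa -2.42 ± 0.11, Nek2 -2.39 ± 0.10), and none of either was called higher. Orc4 gained 0.26 ± 0.10 there, with an edgeR adjusted p of 0.020.

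Of 22 genes for retinoblastoma proteins, E2F factors and kinases, 14 fell between EB days 12 and 20 (8.78% of all genes), led by the repressor genes E2f7 (-2.40 ± 0.13) and E2f8 (-2.40 ± 0.12) and the phosphatase gene Cdc25b (-2.32 ± 0.16). From RA EBs to NPCs 11 fell (17.4% of all genes), led by Mybl2 (-2.49 ± 0.09), E2f8 (-2.21 ± 0.12) and Rbl1 (-2.08 ± 0.12). The retinoblastoma gene Rb1 (0.62) and its relative Rbl2 (0.91) had positive estimates there. Among 11 inhibitors and genes of cell cycle exit, Cdkn1c went from 2.32 FPKM at EB day 4 to 96.5 in RA EBs (5.26 ± 0.13) and 292 in NPCs (1.68 ± 0.09), while in EBs it fell from 108 at day 12 to 32.1 at day 20 (-1.85 ± 0.09). Cdkn1a rose by 1.08 ± 0.13 in NPCs, and Cdkn2b rose by 1.84 ± 0.37 at EB day 20. Between EB days 12 and 20 Cdkn2b was the only 1 of the 11 called higher (17.6% of all genes). In that interval 3 were called lower (8.78%), 9 had negative estimates and the median was -0.41. From RA EBs to NPCs 3 were called higher (18.1% of all genes) and 1 lower (17.4%), with a median of 0.67.

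Bisphenols were compared with DMSO to ask whether they shifted these genes during differentiation. Within a stage the 3 bisphenol libraries were set as 1 class against the lone DMSO library, which was assumed to vary like them, and genes were called at an adjusted p under 0.05 without a threshold on size. The spread in these tests came only from the scatter among the 3 bisphenol libraries of each stage, which may hold differences between the compounds. In ESCs the edgeR test called none of the 39, and none of all genes (0%), none had an unadjusted p under 0.05, and DESeq2 and limma called none. At EB day 4 Mki67 was lower (-0.61 ± 0.13; 0.563% of all genes called), at day 6 Ccnd2 was higher (0.44 ± 0.12; 2.55%), and in RA EBs Top2a was higher (0.36 ± 0.09; 2.34%). Limma did not call Mki67 at day 4 or Top2a in RA EBs. Calls were lost without the BPA or the BPF library for Mki67, without BPF or BPS for Ccnd2 and without any 1 of the 3 for Top2a. At day 9 Ccnd1 (-0.75 ± 0.10) and Ccnd2 (-0.39 ± 0.11) were lower (7.49%), the latter not without the BPS library or with limma on log2(FPKM + 0.1). At day 9 neural progenitor markers summed to 166.4 FPKM with DMSO and 106.8, 105.6 and 92.89 with bisphenols, neuron markers to 299.8 against 228, 184.1 and 158.8, and mesenchyme markers to 27.83 against 89.49, 121.9 and 140.5, and their part was not tested. In NPCs edgeR and DESeq2 called none of the 39 (2.25% of all genes) and limma 1 or 2, 7 had an unadjusted p under 0.05, and the smallest p were those of Orc1 (0.91 ± 0.27), Foxm1 (0.28 ± 0.10) and Ccna2 (0.26 ± 0.10), with adjusted p of 0.13 to 0.25.

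At EB day 12, 13 of the 39 were called (18.9% of all genes), 12 as lower with bisphenols (8.79%) and 1 as higher (10.1%). Ccnd1 had the smallest p (-0.85 ± 0.10, adjusted p = 1e-06), followed by Cdkn2a, which was higher (1.72 ± 0.32), Cdt1 (-0.59 ± 0.12), Rrm2 (-0.43 ± 0.10) and E2f1 (-0.48 ± 0.12). Cdt1 stood at 37.67 FPKM with DMSO and at 25.09, 25.75 and 26.26 with the bisphenols. In all, 5 of 19 replication and 4 of 12 mitosis genes were called lower, with class medians of -0.16 and -0.24, against -0.05 over all genes. The count depended on the setting: 11 were called with DESeq2, 9 with RLE scaling, 8 with limma on log2(FPKM + 1) and 7 with a filter of 5 CPM. In this stage summed mesenchyme markers were 21.45 FPKM with DMSO and 332.8, 355.6 and 351.5 with bisphenols, neuron markers 865.2 against 748.4, 610.5 and 608.8, and neural progenitor markers 608.8 against 447.1, 381.4 and 373.4. The 4 cardiac markers, Tnnt2, Myh6, Actn2 and Nppa, were at 0.53 against 11.69, 39.85 and 108.6. Their part in the differences at day 12 was not tested. The share of all genes called is given only for the main setting, so the counts under other settings have no background beside them.

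At EB day 20 the direction was the opposite for most of them. Of the 39, 14 were called (19.6% of all genes), 13 as higher with bisphenols (9.14%) and 1, Cdkn1b, as lower (-0.45 ± 0.09; 10.5%). The smallest p were those of Ccnd2 (0.81 ± 0.12), Cdkn2a (1.70 ± 0.26), Rrm2 (0.69 ± 0.13), Rrm1 (0.49 ± 0.09) and Cdkn1b. Ccnd2 stood at 28.29 FPKM with DMSO and 43.7, 57.33 and 54.31 with the bisphenols, and Foxm1 at 4.25 against 5.79, 6.77 and 6.85 (0.55 ± 0.11). In all, 7 of 12 mitosis genes were called higher (Ccna2, Cdk1, Aurka, Aurkb, Bub1b, Foxm1 and Top2a), with a class median of 0.36, but of 19 replication genes only Rrm1 and Rrm2, with a median of 0.08, against -0.06 over all genes. The 6 Mcm2 to Mcm7 genes, Mcm10 and Cdc6 were not called. Between 11 and 20 of the 39 were called under the other settings. Mesenchyme markers summed to 105.2 FPKM with DMSO and 951, 1042 and 1035 with bisphenols at this stage, 3 endothelial markers (Cdh5, Pecam1 and Tie1) to 2.7 against 6.12, 7.22 and 9.05, cardiac markers to 4.49 against 9.42, 22.27 and 43.25, neural progenitor markers to 196.7 against 306.5, 246.3 and 261.1, and neuron markers to 1663 against 1509, 1273 and 1330. Their part in these differences was not tested. At this stage, too, the counts under other settings have no share of all genes beside them.

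**Figure D5:**
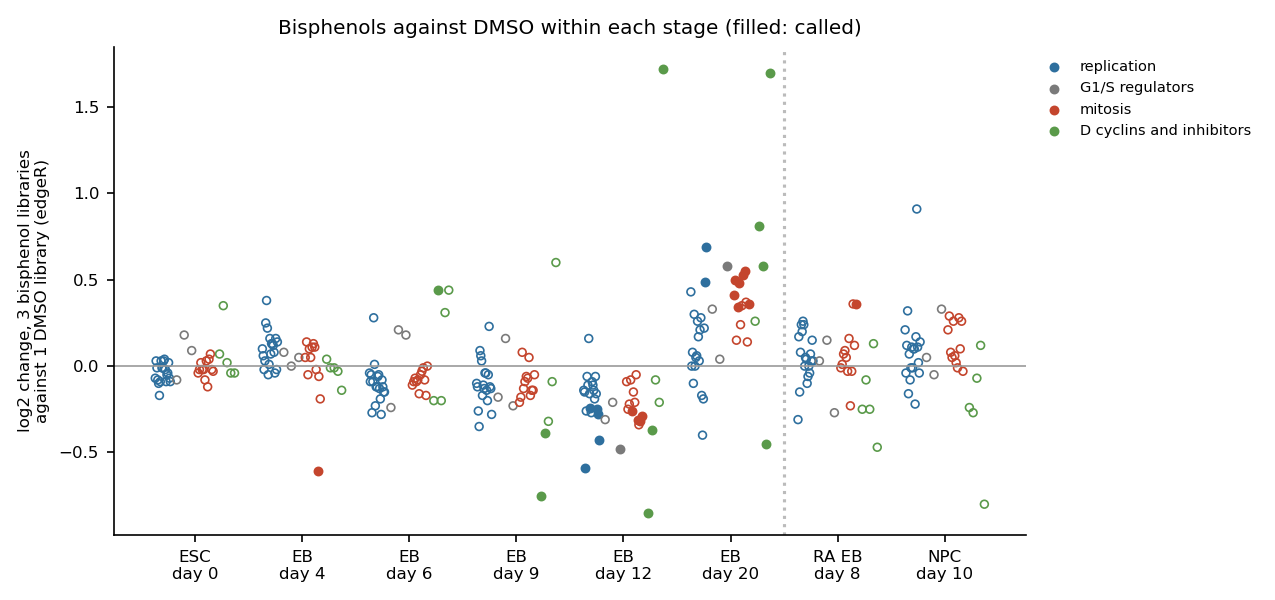
Log2 change of each of the 39 genes between 3 bisphenol libraries and 1 DMSO library (edgeR, vertical axis) at 8 stages (horizontal axis), coloured by role, with filled points for called genes. Points lie mostly below 0 at EB day 12 (37 of 39) and mostly above 0 at day 20 (34 of 39).

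The difference between the 2 stages was tested directly, in a comparison added after the data were seen. For 17 of the 39 the bisphenol effect was higher at day 20 than at day 12 (5.57% of all genes differed, 2.66% upwards), and for none was it lower (2.9%). That is, these genes fell more steeply from day 12 to day 20 in DMSO than with bisphenols. Ccnd2 had the smallest p, with a difference of 1.19 ± 0.16 (adjusted p = 5.2e-05 in edgeR), then Rrm2 (1.12 ± 0.16), Ccnd1 (1.10 ± 0.17), Foxm1 (0.86 ± 0.14) and Rrm1 (0.77 ± 0.12). Leaving out any 1 bisphenol library gave 12 to 17 genes. The contrast rests on 1 DMSO library at each stage, which no setting could leave out.

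Cdkn2a kept its direction, higher with bisphenols by 1.72 at day 12 and 1.70 at day 20. Its libraries at day 12 held 2.32 FPKM with DMSO and 6.56, 9.31 and 7.74 with bisphenols. The lone DMSO library was the lowest at both stages, which a single library can be by chance. Cdkn2b, the neighbouring inhibitor gene, was likewise higher, by 3.23 ± 0.44 at day 12 and 1.84 ± 0.29 at day 20. In RA EBs and NPCs the Cdkn2a estimate had the other sign, and over the 6 later stages its bisphenol effect differed between the branches: 1.11 in EBs and -0.61 in the neural branch, a difference of -1.72 ± 0.32 (adjusted p = 0.0023, edgeR interaction term). Gins1 was the other of the 39 to differ (-0.26 in EBs, 0.17 in the neural branch, difference 0.43 ± 0.13, adjusted p = 0.038, edgeR). Such a difference was called for 8.79% of the 15084 genes tested. In NPCs mesenchyme markers summed to 326.1 FPKM with DMSO and 153.9, 137 and 153.1 with bisphenols, the reverse of the order at EB days 12 and 20, and their part was not tested.

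The 3 bisphenols, which differ in the bridge between the phenol rings (dimethyl-substituted carbon in BPA, unsubstituted methylene in BPF, sulfonyl in BPS), were compared at the same dose and times over the 8 stages, as 6 pairs with DMSO included. In none of the 6 pairs was any of the 39 called by edgeR, nor by DESeq2 or limma. Of all genes 0.166% were called for BPA, 0.992% for BPF and 1.15% for BPS against DMSO, 0% for BPA against BPF and for BPF against BPS, and 0.0064% for BPA against BPS. The 3 comparisons with DMSO share its libraries. Of the 39, 2 had an unadjusted p under 0.05 for BPA against DMSO, 1 for BPF, 2 for BPS, 2 for BPA against BPS and 0 in the other pairs of bisphenols.

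Ccnd1 had the smallest p in each pair with DMSO: -0.28 ± 0.10 with BPA, -0.28 ± 0.10 with BPF and -0.29 ± 0.10 with BPS, with edgeR adjusted p of 0.31, 0.18 and 0.13, and of 0.34, 0.34 and 0.30 when adjusted over the 6 pairs. The next were Gins4 (0.11 ± 0.05) and Ccne2 (0.12 ± 0.06) for BPA, Cdt1 (-0.14 ± 0.07) and Mcm7 (-0.09 ± 0.05) for BPF, and Gins1 (-0.16 ± 0.07) and Cdt1 (-0.13 ± 0.07) for BPS. Between bisphenols the smallest p were those of Cdc45 for BPA against BPF (0.11, 95% interval -0.01 to 0.23), Mcm4 for BPA against BPS (-0.09, -0.17 to -0.01) and Cdc6 for BPF against BPS (-0.07, -0.17 to 0.03). Estimates over the 39 ran from -0.13 to 0.13 between bisphenols. The 95% interval lay within a log2 of 0.5 of no difference for 38 of 39 genes in both pairs with BPA and for 39 in BPF against BPS. Differences smaller than these intervals, or confined to some stages, were not resolved.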

How the data were processed

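Total RNA was sequenced at BGI, and the deposited expected counts are the authors' estimated reads per gene, without normalization, in columns named as RSEM names them. The deposited FPKM values are the authors' own, per the file headers, and scale each gene by its length and the library's depth. Bowtie2, HISAT and RSEM are listed, with the build mm10, in the submitters' processing notes, which give no role or version. Each library's table lists genes from 0.01 FPKM upwards, and 0 was used for the others. Between 78.8% and 80.6% of a library's counts were whole before rounding, which was applied to every count.

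The 39 genes were matched by symbol to Entrez identifiers in the RefSeq annotation of GRCm38.p6, which held 20551 of 20612 identifiers. Members, lists and tests were chosen with earlier results of these data known. Counts were tested with edgeR 4.0.16 in R 4.3.3. Genes needed 1 CPM in at least 4 libraries, and TMM factors ran from 0.923 to 1.143. The fit for stages and compounds had terms for stage and treatment, with 21 residual degrees of freedom. Bisphenols within a stage were tested in a fit of stage by class, with 16. SE was derived from F, and intervals are at 95% confidence. The branches were compared by an interaction over the 6 later stages. FPKM levels are given by library or as the mean and SD over the 4 treatments.

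Named genes followed a rule: in each class up to 4 called genes with the largest change, any gene against its class, the 5 called with the smallest p (or 3 not called) for treatments, D cyclins and inhibitors throughout, and up to 3 called genes of each other list. Printed promoters came from genes called at both large falls. Other settings were DESeq2 1.42.0, RLE scaling, other filters, limma 3.58.1 on log2(FPKM + 1) or log2(FPKM + 0.1), no term for treatment, no threshold on size, and omitted libraries. The analysis was tested on simulated counts. For EB day 20 against day 12, 36% of log2 changes of 1 were called (72% passed the adjusted p alone) and 93% of changes of 2. For BPA against DMSO over stages, 66% of changes of 0.5 and 87% of changes of 1 were called. Unchanged genes called numbered 3 and 10. Genes not called may therefore still have changed by such amounts. The labels give no batch.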

Additional observations from a re-analysis of the deposited data

Results flagged for a closer look

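A single library stood apart from the other 3 of its stage in 23 of the 312 groups of 4 examined (39 genes at 8 stages), where about 1 in 20 is reached by chance. That rate assumes independent groups of 4 like replicates, whereas these libraries had different treatments and are shared by all 39 genes. No share over all genes stands beside the count, so it is not a trait of these genes. In 16 of the 23 groups the library was that of DMSO. DMSO was high for Mcm2 (102 FPKM) and Cdc45 (30.14) in RA EBs, for Mcm10 (36.97), Orc1 (17.69) and Ccne1 (45.36) at EB day 6, for Gins4 in ESCs (81.94), and at EB day 12 for Cdt1 (37.67), Pcna (218.8), Foxm1 (29.29) and Ccnd1 (191.4). DMSO was low for Rrm2 (78.56), Ccnb2 (112.2) and Aurkb (60.21) at EB day 4, Cdkn1b (22.53) at day 6, Orc6 (31) at day 9 and Gins1 (8.18) in NPCs. BPA was low for Cdc6 in NPCs (2.08) and Bub1 at EB day 4 (43.8), and high for Orc6 (22.8) and Aurka (16.96) in NPCs and for Ccnd1 at EB day 4 (39.3). BPF was high for Gins4 at EB day 20 (35.32), and BPS was high for Bub1 in ESCs (52.06).

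The bisphenol effect differed between the branches for Gins1 (0.43, neural minus EB branch) and Cdkn2a (-1.72). It differed between EB days 20 and 12 for 17 genes, each time higher at day 20. In the replication class the differences were 0.50 for Mcm2, 0.68 for Cdt1, 0.47 for Pcna, 0.77 for Rrm1 and 1.12 for Rrm2. The G1/S regulators Ccne1 and E2f1 were at 0.64 and 1.06. Mitosis genes were at 0.74 (Ccna2), 0.55 (Ccnb2), 0.58 (Cdk1), 0.75 (Aurkb), 0.86 (Foxm1), 0.71 (Mki67) and 0.65 (Top2a), and the D cyclins at 1.10 (Ccnd1), 1.19 (Ccnd2) and 0.66 (Ccnd3).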

How the results depend on the processing

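Over 1449 tests of single called members under another setting, 1367 kept direction and call, 82 kept direction without the call and 0 reversed. The calls between EB days 12 and 20 and from RA EBs to NPCs were lost under some setting only for Orc1 (limma) and Orc6 (DESeq2 and RLE). With no threshold on size, 25 genes were called at EB day 4, 20 at day 6, 29 at day 9, 33 at day 12, 28 in RA EBs and 30 for NPCs against EB day 20. From EB day 4 to 6, 2 genes were called in place of 1 with DESeq2, RLE scaling, no filter, a filter of 5 CPM or limma on log2(FPKM + 0.1). Without the libraries of 1 treatment the counts were 1 to 2 at that step, 2 to 4 from day 6 to 9 (4 without BPF) and 0 to 1 from day 9 to 12 (1 without BPS). For bisphenols within a stage, limma with a pseudocount of 1 called 0 genes at EB day 4, 8 at day 12 and 1 in NPCs, and with 0.1 it called 0, 0, 1, 7 and 2 at EB days 4, 6, 9 and 12 and in NPCs, while the filter of 5 CPM gave 7 at day 12. Without single bisphenol libraries the counts were 0 to 1 at EB day 4 (0 without BPA or BPF), 0 to 1 at day 6 (0 without BPF or BPS), 1 to 4 at day 9 (4 without BPA, 1 without BPS) and 0 in RA EBs. Replication minus mitosis at EB day 4 was -0.13 without DMSO (range -0.29 to -0.13), 0.32 (0.20 before) in RA EBs with Ccne1, Ccne2 and E2f1 added, and 0.14 (FPKM) or 0.09 (those 3 genes added) from RA EBs to NPCs (0.01 before). The cause of these shifts was not tested, and the counts within a stage under other settings have no share of all genes beside them. Stages were matched by treatment through a term in the fit, and without that term the 8 stage counts were the same. The labels give no replicate numbers. The lone DMSO library of a stage limits every comparison within it, and at these depths the low counts of Ccnd2 in ESCs and of Cdkn2a limit their precision.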
